A study of Mus musculus with 10 samples.

Results

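The genes described here encode the bone morphogenetic protein (BMP) ligands Bmp2, Bmp4, Bmp6 and Bmp7, the secreted antagonists Grem1, Fst and Nog, and the BMP target genes Id1, Id2 and Id3. They were chosen by name, and all 10 were present among the 55486 genes of the count table. Levels are given as CPM (counts scaled to the library total) in 10 mRNA libraries from 5 gels of collagen and basement membrane extract. CD26- and CD26+ normal fibroblasts (NFs) had been sorted from mammary tissue pooled over mTmG mice aged 8 weeks, a reporter strain whose cells are red (Tomato) until Cre recombinase turns them green (GFP), and cultured in 2D before use. Only the CD26+ NFs received Cre, from an adenovirus, so exposure to the virus and the subset cannot be told apart. Tumor cells were the invasive lobular carcinoma (ILC) lines 13-MCB-17 and 10-SJK-221, which carry WapCre, a Cre driven by a milk protein promoter in mammary epithelium, and Cdh1F/F alleles. Tumor cell replicates are these lines, not animals. Both NF subsets in equal parts shared gel 1, where no tumor cells were present. Gels 2 (13-MCB-17) and 3 (10-SJK-221) held tumor cells alone, and gels 4 (13-MCB-17) and 5 (10-SJK-221) held both subsets with tumor cells. After 7 days the gels were dissolved and CD26- NFs, CD26+ NFs and tumor cells were sorted by color, which gave 1 library per subset alone and 2 libraries for each other group. The labels do not say whether gels held separate cell isolations, so the spread behind the p-values, between gels or lines, may be technical. Fits of NFs by culture took both subset libraries of a gel as separate libraries. All comparisons with NFs alone rest on the single gel 1, so no spread between lone NF gels was measured.

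BMP ligands are secreted dimers that bind serine/threonine kinase receptors at the cell surface and lead to phosphorylation of SMAD1, SMAD5 and SMAD9, which enter the nucleus with SMAD4. Id1, Id2 and Id3 are among the best known targets of these SMADs, and their proteins bind E proteins and keep them from DNA. Gremlin-1 and noggin bind BMPs outside the cell and block receptor binding, while follistatin binds activins tightly and some BMPs more weakly. In the mammary gland, exchange of BMPs and their antagonists between stroma and epithelium takes part in duct growth.

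Libraries held 14142334 to 18408940 counts. A count of 0 allows up to 3 counts, or 0.163 to 0.212 CPM depending on the library, and this floor covers counting error alone, because reads lacking molecular identifiers do not each stand for a molecule. In bulk libraries, fewer expressing cells and less RNA per cell cannot be told apart. Identity markers went with the labels, as the summed level of 10 fibroblast markers was 80095 and 75058 CPM in lone NFs, 25951 to 48260.3 CPM in co-cultured NFs and 65 to 425 CPM in tumor cells, and that of 10 epithelial markers was 4346 to 5775 CPM in tumor cells and 0.807 and 1.05 CPM in NFs alone. In co-cultured NFs the epithelial sum was 121 to 327 CPM, with all 10 markers present. By the median epithelial marker, the co-cultured NF libraries held 1.94%, 2.88%, 2.2% and 4.8% of the tumor level of their own gel (CD26- and CD26+ of gel 4, then of gel 5). By the median fibroblast marker, the co-cultured tumor libraries held 0.294% and 0.173% of the NF level. The epithelial list includes Cdh1, the floxed gene of the tumor lines, at 239 and 269 CPM in lone tumor cells, and beside NFs at 144 and 139.9 CPM. Counts are totals per gene, so they do not show whether these reads come from the floxed part. Without Cdh1 the median shares in NFs were 1.96%, 2.68%, 2.14% and 4.82% in the same order. What the shares with Cdh1 amount to is given with Bmp2, Bmp4, Bmp7, Grem1, Fst, Id1 and Id3.

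Sequences upstream of the transcription start are shown for Grem1, the member with the highest level in co-cultured NFs, and Bmp4, a member that differed between the co-cultured subsets. They come from RefSeq (GRCm38.p6), which matched 5 of the 10 members (Bmp4, Bmp6, Grem1, Id2 and Id3), and these 2 are the windows without a base in an annotated exon. Each line holds the 250 bases before the start, 5′ to 3′ on the gene's own strand. The letters GGCGCC, a GC-rich sequence bound by BMP-activated SMADs, are in capitals where present.
Grem1, minus strand, chr2:113758649-113758898: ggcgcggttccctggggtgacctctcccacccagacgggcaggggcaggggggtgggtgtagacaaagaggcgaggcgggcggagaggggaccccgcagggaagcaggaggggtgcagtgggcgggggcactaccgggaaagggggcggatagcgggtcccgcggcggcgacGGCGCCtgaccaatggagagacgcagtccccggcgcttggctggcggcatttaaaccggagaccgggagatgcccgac
Bmp4, minus strand, chr14:46390670-46390919: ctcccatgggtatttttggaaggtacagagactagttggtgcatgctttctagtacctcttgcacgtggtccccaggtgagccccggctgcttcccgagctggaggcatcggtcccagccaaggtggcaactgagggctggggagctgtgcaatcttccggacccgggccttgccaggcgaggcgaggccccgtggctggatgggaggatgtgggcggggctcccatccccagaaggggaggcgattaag
The Grem1 window held GGCGCC once, with its first base at position -78 from the start, and GTCTG, a SMAD-binding sequence, once on either strand, at position -219. The Bmp4 window held neither. Of 32851 promoter windows of the same length in that annotation, 9.59% held GGCGCC and 42.2% held GTCTG or its reverse complement CAGAC. GC content was 72% for Grem1 and 63.2% for Bmp4.

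The plot of levels by library gives every member in every library. In NFs, 7 of 10 members changed with co-culture: 4 rose (Bmp2, Bmp6, Bmp7 and Grem1; 25.9% of all 15013 genes tested rose) and 3 fell (Fst, Id1 and Id3; 22.9% of all genes fell). The median log2 fold change was -0.35 over the members and 0.02 over all genes. Besides the epithelial markers, the leukocyte marker sum was higher in co-cultured NFs (31.3 to 62.4 CPM against 5.46 and 10 CPM), as was the endothelial sum (10.1 and 8.06 CPM against 4.35 CPM in CD26- NFs, 24.4 and 14.8 CPM against 9.76 CPM in CD26+ NFs). The leukocyte rise was that of Cd68 (3.48 and 6.53 CPM alone, 19.6 to 53.5 CPM in co-culture) and Csf1r, while Ptprc had at most 1 count in each NF library and Cd3e at most 10. Within the endothelial list Tek went the other way, from 3.23 and 4.84 CPM in lone NFs to 0.0575 to 1.98 CPM in co-culture. The fibroblast marker sum was lower in all co-cultured NFs than in lone NFs, as given above. Within that list Thy1 went up in each subset (223 and 456 CPM alone, 464 to 1293 CPM in co-culture). Dcn did so too (1621 and 1943 CPM alone, 1909 to 2935 CPM in co-culture). The part of these markers in the member changes was not tested. In tumor cells, 6 members could be tested, of which 1 rose with co-culture (Bmp7; 10.8% of 13197 genes rose) and 1 fell (Id2; 11.5% fell), with medians of -0.02 and 0.01. Between subsets over 3 gels, 1 member was higher in CD26+ NFs (Bmp2; 3.93% of genes were higher) and 0 were lower (3.60% were lower), with medians of 0.25 and 0.00. Against tumor cells, 7 members were higher in NFs and 2 lower when grown alone (28.4% and 27.1% of 17048 genes), with medians of 1.23 and 0.02. In shared gels 5 were higher in NFs and 4 lower (27.7% and 24.2%), with medians of 0.70 and 0.06. Each comparison with NFs or tumor cells alone uses the same lone libraries, so these counts are not independent of each other.

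**Figure D1:**
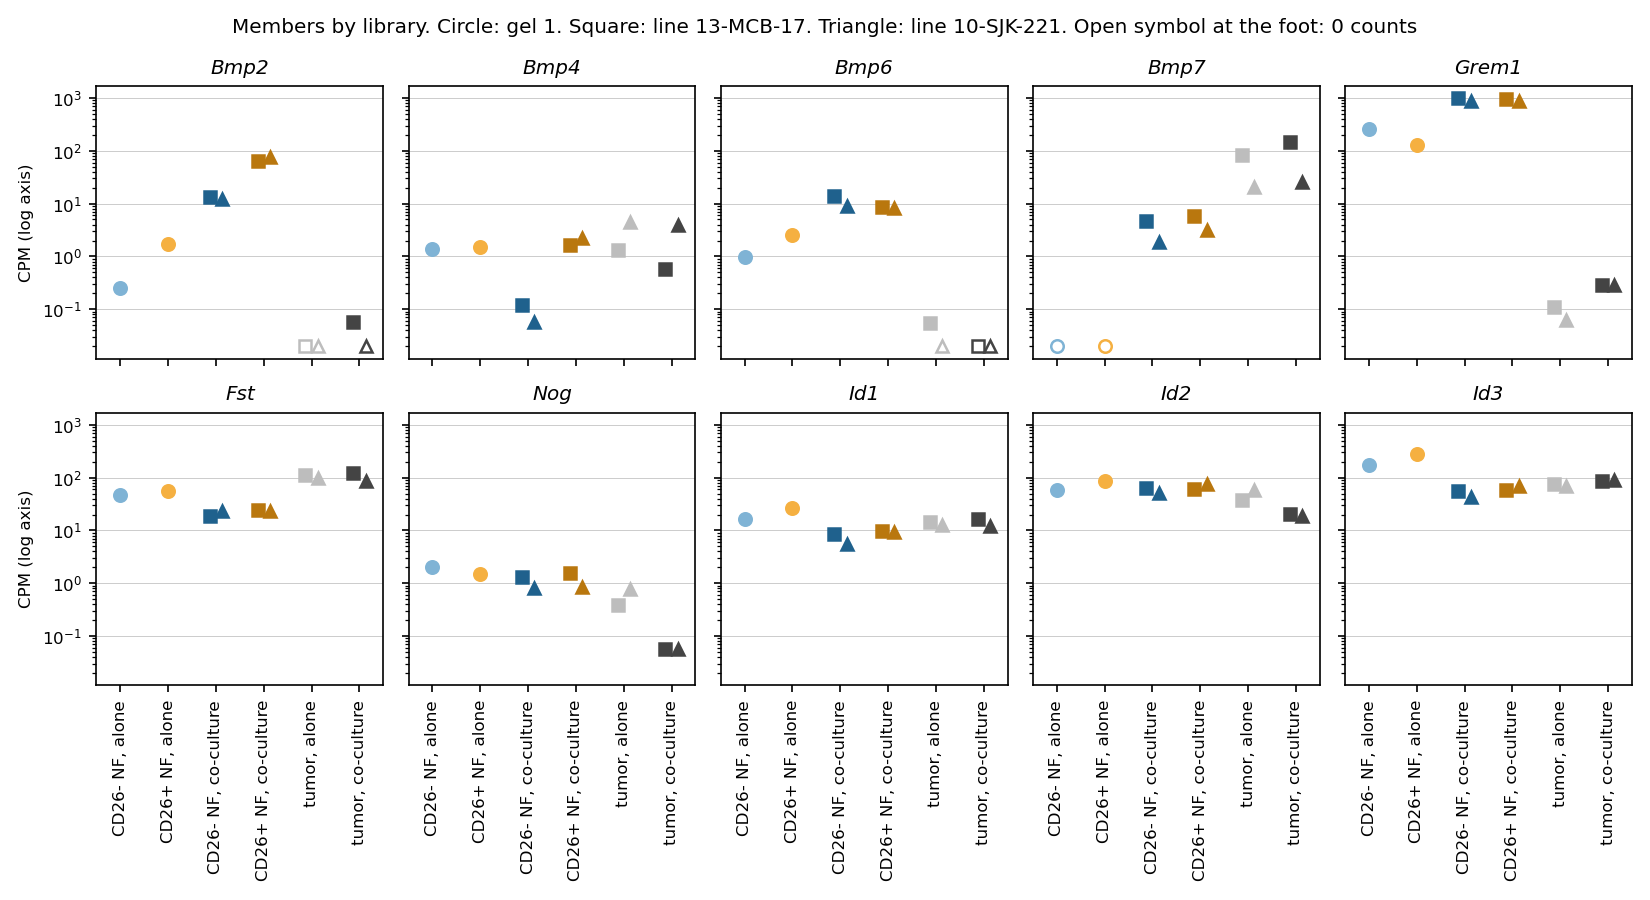
Level of each member in CPM (log axis) in the 10 libraries, by group, where each point is 1 library and open symbols at the foot stand for 0 counts. Grem1 lies at 868 to 982 CPM in co-cultured NFs and under 1 CPM in all tumor libraries, and Bmp4 in co-culture is at 0.121 and 0.0575 CPM for the CD26- subset against 1.67 and 2.19 CPM for the CD26+ subset.

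Bmp2 (ENSMUSG00000027358, GRCm38 chromosome 2, 133552159 to 133562885, plus strand), a ligand with roles in bone and heart formation, was a fibroblast gene that rose in co-culture and was higher in CD26+ NFs. Lone CD26- NFs showed 0.248 CPM against 1.75 CPM for the lone CD26+ subset. With tumor cells, the CD26- subset reached 13.5 and 12.4 CPM, and the CD26+ subset 64.8 and 75 CPM (gels 4 and 5). Tumor libraries held 0 counts in 3 cases and 1 count in the tumor cells of gel 4. All co-cultured NF libraries were thus above both lone NF libraries, and in each gel the CD26+ NFs were above the CD26- NFs, by 7.06-fold, 4.81-fold and 6.03-fold in gels 1, 4 and 5. The fitted increase with co-culture was a log2 fold change of 5.42 (SE 0.255, adjusted p = 2.77e-07), with a low base of 4 and 25 counts in gel 1. The fitted subset difference was 2.30 (SE 0.159, adjusted p = 0.000221), and without gel 5 it was 2.21 with adjusted p = 0.0521. Set against the floor of lone tumor cells, lone NFs were 5.66-fold higher by their mean and the CD26+ library was 9.92-fold higher. The CD26- library was 1.4-fold above that floor, but its 4 counts carry counting error of their own, so no difference is shown for it. In shared gels the ratio of pooled rates was 1388 (95% counting interval 249 to 54834). That ratio rests on 1 tumor count, and NF RNA at the fibroblast marker share would come to 203% of it.

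Bmp6 (ENSMUSG00000039004, chromosome 13, 38345107 to 38500302, plus strand), a ligand also known for its part in iron regulation, likewise rose in co-cultured NFs and was near absent from tumor cells. Lone CD26- NFs showed 0.994 CPM against 2.53 CPM for the lone CD26+ subset. With tumor cells, the CD26- subset reached 14 and 8.92 CPM, and the CD26+ subset 8.74 and 8.41 CPM. The 4 tumor libraries held 1 count in all. The groups alone and in co-culture did not overlap, and the increase was 2.56 (SE 0.391, adjusted p = 0.000697). The subset order changed with culture, CD26+ NFs being 2.54-fold higher in gel 1 and 0.624 and 0.943 times the CD26- level in gels 4 and 5, and neither the subset difference (-0.18, SE 0.328, adjusted p = 0.776) nor the difference between the subsets' responses (-1.78, SE 0.581, adjusted p = 0.356) passed the threshold. NFs were at least 58.8-fold above tumor cells in shared gels, and the ratio was 58.5 (95% counting interval 10 to 2353) for cells grown alone. Exons of Txndc5 on the other strand overlap 5.74% of the Bmp6 exon length, so a small part of its counts is uncertain.

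Bmp7 (ENSMUSG00000008999, chromosome 2, 172868012 to 172940321, minus strand), a ligand needed for kidney development, was the tumor cell ligand of the set. Line 13-MCB-17 had 83.2 CPM alone and 149 CPM in co-culture, and line 10-SJK-221 had 20.8 and 25.5 CPM. Lone NFs of both subsets had 0 counts, so lone tumor cells were at least 262-fold higher by their mean, and at least 419-fold in line 13-MCB-17 and 105-fold in line 10-SJK-221. The level was higher in co-culture in both lines (log2 fold change 0.57, SE 0.135, adjusted p = 0.0189), a call on 1 residual degree of freedom. It was lost without line 13-MCB-17 (0.29, adjusted p = 1), without line 10-SJK-221 (0.80, adjusted p = 0.304) and with DESeq2 (0.55, adjusted p = 0.0637). In the same lone and co-cultured tumor libraries the sum of 4 leukocyte markers went from 301 and 101 CPM to 92.2 and 47.8 CPM, and the markers did not move together. Cd68 went from 299 and 93.1 CPM to 80.5 and 34.8 CPM, Csf1r from 1.79 and 7.25 CPM up to 11.6 and 12.9 CPM, and Ptprc had at most 2 counts. The part of these changes in the Bmp7 difference was not tested.

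Co-cultured NFs held some Bmp7, with 4.73 CPM (CD26-) and 5.91 CPM (CD26+) for gel 4 and 1.9 CPM and 3.11 CPM for gel 5, at least 19.7-fold above lone NFs by their mean and 9.57-fold in the lowest library (adjusted p = 0.000319). Within these 4 libraries the order followed the tumor cells of the same gel, as gel 4 was higher than gel 5 in NFs and in tumor cells. Tumor RNA at the share given by the epithelial markers would amount to 61.2% and 72.7% of the Bmp7 level in CD26- and CD26+ NFs of gel 4, and 29.5% and 39.3% in gel 5. With that share subtracted 1.83 and 1.61 CPM were left in CD26- and CD26+ NFs of gel 4 and 1.34 and 1.89 CPM in gel 5. Gel 4 was then still above gel 5 in CD26- NFs and below it in CD26+ NFs. The bound over lone NFs went from 19.7-fold to 8.41-fold. The increase still passed the threshold, against lone libraries at 0 counts. Bmp7 itself stood at 3.17% to 12.2% of the tumor level of its gel. Of the epithelial markers, Krt19 was above Bmp7 in all 4 libraries (9.19% to 17.7%) and Grhl2 in CD26+ NFs of gel 4, and the others were below it. Krt19 also had 6 and 12 counts in lone NFs. In shared gels NFs were below tumor cells (-4.32, adjusted p = 0.00172), a call lost without gel 4 (-3.13, adjusted p = 0.0937).

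Bmp4 (ENSMUSG00000021835, chromosome 14, 46383520 to 46390669, minus strand), a ligand of early mesoderm and of mammary mesenchyme, was low in all libraries and differed between the subsets in the gels with tumor cells. In gel 1 both subsets had 22 counts (1.37 CPM for CD26- and 1.54 CPM for CD26+). In co-culture CD26- NFs had 2 and 1 counts (0.121 and 0.0575 CPM), and CD26+ NFs had 26 and 31 counts (1.67 and 2.19 CPM). Tumor cells had 1.3 and 0.566 CPM (line 13-MCB-17, alone and co-cultured) and 4.45 and 3.99 CPM (line 10-SJK-221), so the lines differed more than the cultures. Within co-culture, where 6.01% of 16231 genes differed between subsets, Bmp4 had its higher level in the CD26+ subset (4.16, SE 0.947, adjusted p = 0.00482), with a ratio of pooled rates of 21.7 (95% counting interval 7.05 to 108). Bmp2 was the other member called there (2.26, SE 0.181, adjusted p = 1.07e-05). Bmp4 fell in CD26- NFs with co-culture (-3.77, SE 1.02), and the estimate in CD26+ NFs was 0.36 (SE 0.63). Each lone subset is 1 library, so the spread behind these values came from the co-cultured groups. The test of the difference between these responses gave 4.13 (SE 1.2, adjusted p = 0.167) for Bmp4, and 0 members passed it (0.376% of genes did). With the gel as a block the same difference was 4.12 with adjusted p = 0.0275.

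Over all 3 gels the Bmp4 subset difference did not pass the threshold (2.12, SE 0.765, adjusted p = 0.131). It did without gel 1 (4.17, adjusted p = 0.00435) and with DESeq2 (2.63, adjusted p = 0.0315). All Bmp4 statements on NFs rest on 1 to 31 counts per library, and 3.96% of its exon length overlaps the antisense gene Gm15217. Tumor RNA at the epithelial marker share would come to 153% of the 1 count of Bmp4 in CD26- NFs of gel 5, and to 9.05% of the level in CD26- NFs of gel 4 and 8.74% in CD26+ NFs of gel 5. When gel 4 or gel 5 was left out, which leaves 1 library per group, no member was called within co-culture: Bmp4 was 4.93 and 3.56 (adjusted p = 0.61 and 0.975) and Bmp2 was 2.42 and 2.11 (adjusted p = 0.553 and 0.975), and the fall of Bmp4 in CD26- NFs was -4.31 and -3.43 (adjusted p = 0.333 and 0.361). The sum of 4 endothelial markers, of which 3 or 4 were above 3 counts in each NF library, was also higher in CD26+ NFs, at 9.76, 24.4 and 14.8 CPM against 4.35, 10.1 and 8.06 CPM in gels 1, 4 and 5. Leukocyte sums in the same gels were 10, 62.4 and 40 CPM in CD26+ NFs against 5.46, 46.1 and 31.3 CPM in CD26- NFs. Epithelial sums were 1.05, 179 and 327 CPM against 0.807, 121 and 150.2 CPM. Fibroblast sums were lower in CD26+ NFs, at 75058, 25951 and 34155 CPM against 80095, 42433 and 48260.3 CPM. The part of these marker sums in the Bmp2 and Bmp4 differences was not tested.

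**Figure D2:**
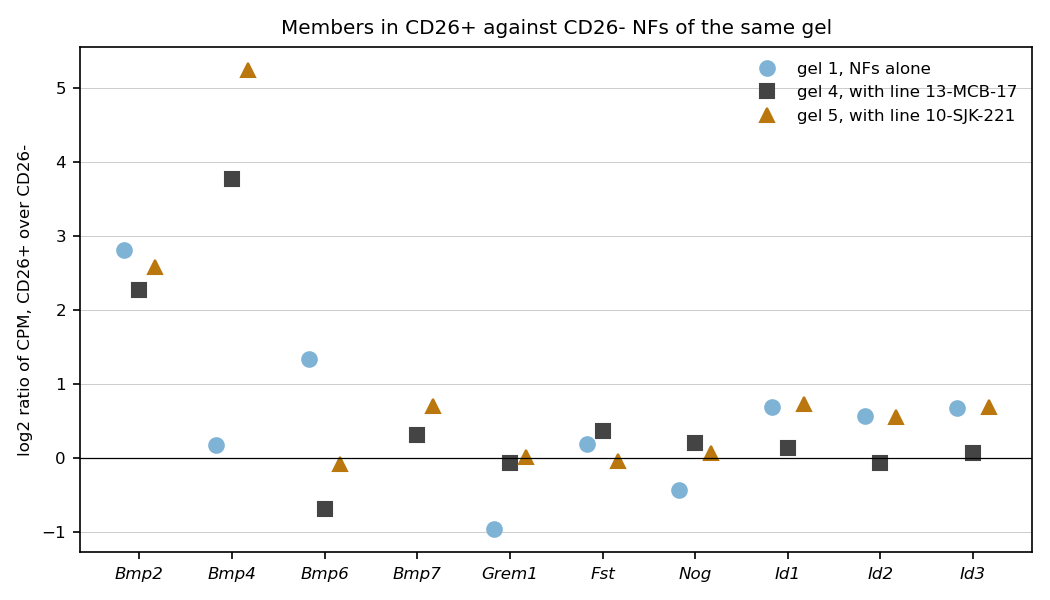
Log2 ratio of CPM in CD26+ over CD26- NFs of the same gel for each member, where each point is 1 gel and the line at 0 marks equal levels (Bmp7 has no point in gel 1, where both subsets had 0 counts). Bmp2 lies at 2.27 to 2.82 in all 3 gels, and Bmp4 at 0.18 in gel 1 against 3.78 and 5.25 in gels 4 and 5.

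Grem1 (ENSMUSG00000074934, chromosome 2, 113746164 to 113758646, minus strand) encodes gremlin-1, which blocks BMP2, BMP4 and BMP7. Lone NFs showed 257 CPM (CD26-) and 131 CPM (CD26+). With tumor cells, the CD26- subset reached 982 and 868 CPM, and the CD26+ subset 939 and 880.2 CPM. Tumor libraries held 1 to 5 counts each. All 4 co-cultured NF libraries were above both lone ones, and CD26+ NFs had 0.512 times the CD26- level in gel 1, while the subsets overlapped in co-culture. The increase was 2.34 (SE 0.197, adjusted p = 3.04e-05), made up of 1.91 (SE 0.212) in CD26- NFs and 2.83 (SE 0.213) in CD26+ NFs, and the difference between these responses did not pass the threshold (0.91, SE 0.3, adjusted p = 0.371). The subset difference over 3 gels was -0.49 (SE 0.185, adjusted p = 0.145). Lone NFs stood 2251 times above lone tumor cells by the ratio of pooled rates (95% counting interval 769.7 to 10916), and in shared gels the log2 difference was 11.81 (SE 0.27, adjusted p = 1.89e-07). The 5 counts in either co-cultured tumor library are fewer than the NF share of 0.294% or 0.173% would bring.

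Fst (ENSMUSG00000021765, chromosome 13, 114452290 to 114458951, minus strand) encodes follistatin, the activin binder, and fell in co-cultured NFs. Lone NFs showed 47.6 CPM (CD26-) and 54.7 CPM (CD26+). With tumor cells, the CD26- subset was down at 18.6 and 23.5 CPM, and the CD26+ subset at 24 and 22.9 CPM. Tumor cells had 114 and 97 CPM alone, and beside NFs 120.0 and 84.9 CPM (lines 13-MCB-17 and 10-SJK-221). All tumor libraries were therefore above all NF libraries, and the co-cultured NFs were below the lone NFs without overlap. The fall in NFs was -1.15 (SE 0.15, adjusted p = 0.000183), while the estimate in tumor cells was -0.08 (SE 0.105, adjusted p = 0.63). NFs were lower than tumor cells alone (-0.92, SE 0.222, adjusted p = 0.00839) and in shared gels (-2.01, SE 0.193, adjusted p = 4.47e-05). Tumor RNA at the epithelial marker share would make up 7.93% to 17.8% of Fst in co-cultured NFs, and with it subtracted the fall was -1.29. Exons of Gm47040 overlap 2.51% of the Fst exon length.

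Nog (ENSMUSG00000048616, chromosome 11, 89300638 to 89302332, minus strand), the gene of noggin, was low throughout. Lone NFs showed 1.99 CPM (CD26-) and 1.47 CPM (CD26+), and the 4 co-cultured NF libraries 0.806 to 1.54 CPM, whose range included the lone CD26+ level. Tumor cells had 0.38 and 0.763 CPM alone and 1 count in each co-cultured library. Neither co-culture (-0.57, SE 0.448, adjusted p = 0.315) nor subset (-0.20, SE 0.43, adjusted p = 0.816) gave a call in NFs. NFs were higher than tumor cells alone (1.72, SE 0.545, adjusted p = 0.0255) and in shared gels (4.32, SE 0.952, adjusted p = 0.00117), the latter on 72 counts against 2 (ratio of pooled rates 19.9, 95% counting interval 5.32 to 168). The call for lone cells was lost without the CD26- library of gel 1 (1.45, adjusted p = 0.0971), without line 13-MCB-17 (1.32, adjusted p = 0.135) and with DESeq2 (1.77, adjusted p = 0.116). In shared gels it was lost without gel 4 (3.93, adjusted p = 0.0868) and without gel 5 (4.63, adjusted p = 0.0656).

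Id1 (ENSMUSG00000042745, chromosome 2, 152736251 to 152737410, plus strand) and Id3 (ENSMUSG00000007872, chromosome 4, 136143497 to 136145755, plus strand), early targets of BMP signaling, fell in co-cultured NFs. For Id3, lone NFs showed 172 CPM (CD26-) and 274 CPM (CD26+). With tumor cells, the CD26- subset was down at 54.9 and 42.2 CPM, and the CD26+ subset at 57.6 and 68 CPM. All co-cultured NF libraries were below both lone ones, with a log2 fold change of -1.93 (SE 0.149, adjusted p = 7.3e-06). For Id1, lone NFs showed 16.5 CPM (CD26-) and 26.5 CPM (CD26+), and with tumor cells the CD26- subset had 8.66 and 5.58 CPM and the CD26+ subset 9.57 and 9.26 CPM, again without overlap (-1.31, SE 0.197, adjusted p = 0.000443). Both genes fell in either subset, Id3 by 1.76 in CD26- and by 2.09 in CD26+ NFs (SE 0.219 and 0.218) and Id1 by 1.15 and by 1.46 (SE 0.279 and 0.273). In that fit of 4 groups 30.8% of genes changed in CD26- NFs and 34.2% in CD26+ NFs, and the Id1 calls were lost without gel 4 (adjusted p = 0.129 and 0.117) or gel 5 (0.212 and 0.0974). In each gel CD26+ NFs had the higher level of both genes, by 1.05-fold to 1.66-fold, and neither subset difference passed the threshold (0.36, SE 0.19, adjusted p = 0.276 for Id1, and 0.32, SE 0.142, adjusted p = 0.192 for Id3). Without gel 4 the Id3 difference was 0.54 with adjusted p = 0.039. In co-cultured NFs the tumor share would make up 3.73% to 6.2% of Id1 and 3.06% to 6.36% of Id3.

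Tumor cells gave no call for either gene. Lone tumor cells showed 77.1 and 68 CPM of Id3, and those beside NFs 86.6 and 90.1 CPM (0.26, SE 0.107, adjusted p = 0.119), and Id1 had 14.3 and 12.9 CPM against 16.7 and 12 CPM (0.04, SE 0.168, adjusted p = 0.897). The difference between the NF and the tumor response, tested directly, was -2.19 for Id3 (SE 0.233, adjusted p = 0.000662) and -1.37 for Id1 (SE 0.344, adjusted p = 0.0263), in a test that 20.2% of genes passed. The order of the cell types differed between cultures, as lone NFs were above tumor cells for Id3 (1.71, SE 0.175, adjusted p = 8.58e-05) and Id1 (0.75, SE 0.259, adjusted p = 0.0371), and in shared gels they were below for Id3 (-0.48, SE 0.153, adjusted p = 0.0266) and Id1 (-0.61, SE 0.227, adjusted p = 0.047). The Id3 call for lone cells was kept without any 1 of the 4 lone libraries. In shared gels, leaving out gel 4 or gel 5 gave -0.49 and -0.47 for Id3 (adjusted p = 0.198 and 0.223) and -0.48 and -0.72 for Id1 (0.333 and 0.18). The Id1 call for shared gels was also lost under RLE scaling (-0.55, adjusted p = 0.0676), with no filter (-0.60, 0.0554), with DESeq2 (-0.55, 0.116) and with carry-over subtracted (-0.61, 0.052). For lone cells Id1 was lost without the CD26+ library (0.50, adjusted p = 0.224), without line 13-MCB-17 (0.87, adjusted p = 0.0591) and without line 10-SJK-221 (0.64, adjusted p = 0.133).

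Id2 (ENSMUSG00000020644, chromosome 12, 25093799 to 25097140, minus strand), which the mammary gland needs for alveolar growth, was called in tumor cells and not in NFs. Lone NFs showed 57.8 CPM (CD26-) and 86.5 CPM (CD26+), and with tumor cells the CD26- subset had 64.5 and 51 CPM and the CD26+ subset 62 and 75.2 CPM, so the cultures overlapped (-0.13, SE 0.153, adjusted p = 0.517). In tumor cells it went from 37.2 to 20.5 CPM in line 13-MCB-17 and from 57.9 to 18.8 CPM in line 10-SJK-221. This fall of 1.27 on the log2 scale passed the threshold (SE 0.175, adjusted p = 0.00184), and was lost without line 10-SJK-221 (-0.90, adjusted p = 0.0681). The leukocyte markers given with Bmp7 changed in the same libraries, Cd68 to a lower and Csf1r to a higher level in both lines, and their part in the Id2 fall was not tested. The responses of NFs and tumor cells differed by 1.17 (SE 0.294, adjusted p = 0.0277). The same test gave -1.09 for Fst (SE 0.295, adjusted p = 0.0338), which called these 4 members. Other settings added a call for Bmp7 (8.35, adjusted p = 0.000891 with no filter, and 7.66, 0.00333 with DESeq2) or for Grem1 (5.97, 0.0103 with carry-over subtracted). That subtraction left no Grem1 counts in either co-cultured tumor library, as the NF share came to 997% and 531% of the Grem1 level there. The added Grem1 call therefore follows from the subtraction itself. Without gel 4 the differences were -2.20 for Id3, -1.23 for Id1, 1.26 for Id2 and -0.69 for Fst, with adjusted p of 0.0838, 0.233, 0.235 and 0.322. Without gel 5 they were -2.20, -1.49, 1.05 and -1.45, with adjusted p of 0.0719, 0.166, 0.273 and 0.128. Id2 was higher in NFs in shared gels (1.88, SE 0.194, adjusted p = 0.000137) and in lone cells (0.71, SE 0.221, adjusted p = 0.0246), the latter lost without the CD26+ library (0.52, adjusted p = 0.142) and without line 13-MCB-17 (0.46, adjusted p = 0.129).

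**Figure D3:**
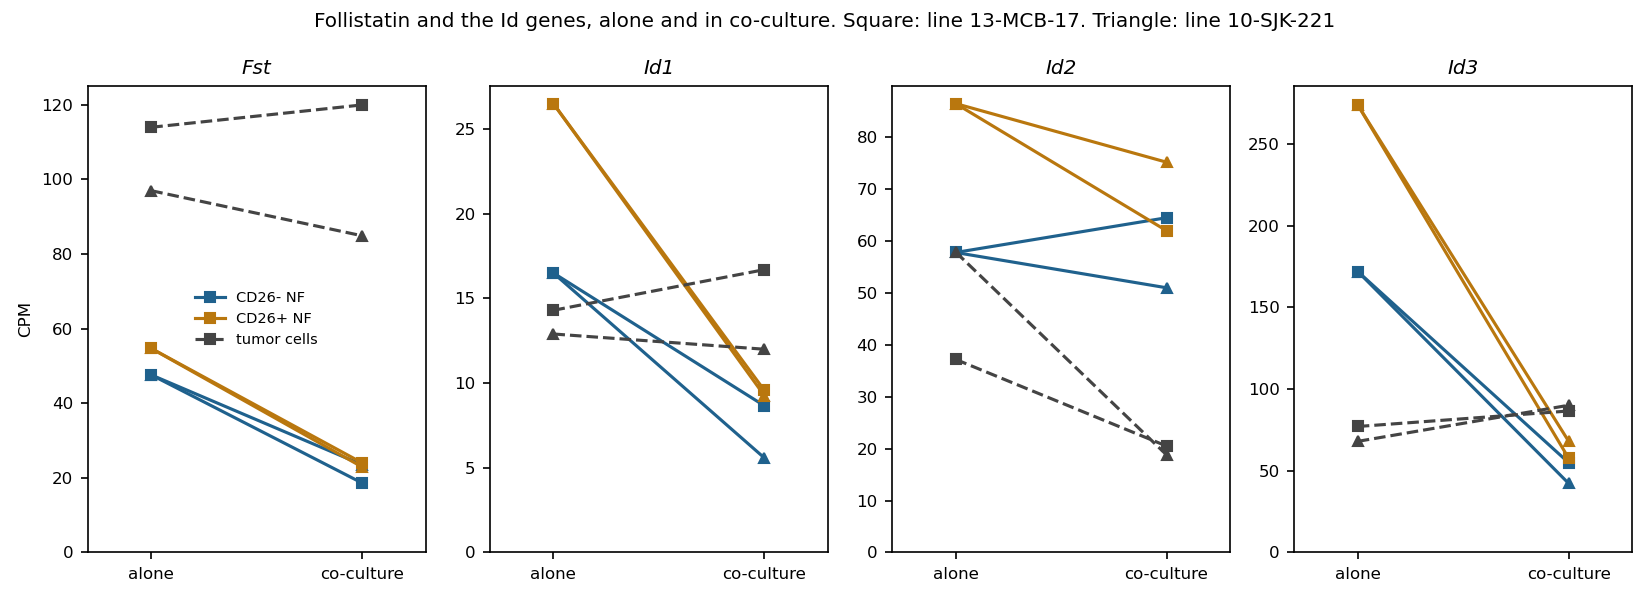
Level of Fst, Id1, Id2 and Id3 in CPM (linear axis from 0) alone and in co-culture, where each line joins a lone library to a co-cultured library of the same cells (the 1 lone library of a subset is joined to both gels). In NFs, Id3 falls from 172 and 274 CPM to 42.2 to 68 CPM, and in tumor cells it lies between 68 and 90.1 CPM in all libraries.

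**Figure D4:**
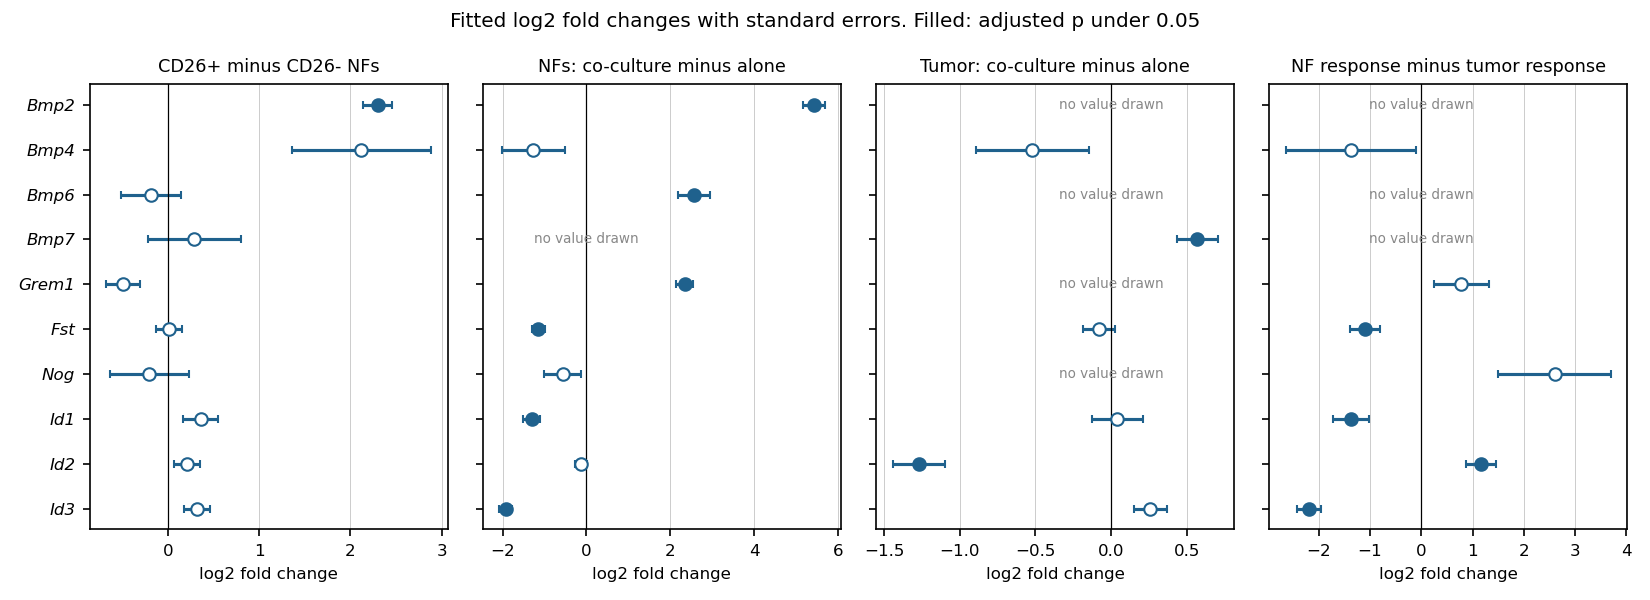
Log2 fold change of each member in 4 comparisons with its standard error as a bar and filled points for adjusted p under 0.05 (members with 0 counts in a group, or removed by the filter on low counts, have no value drawn). Bmp2 has the highest value drawn for NFs in co-culture, 5.42, and Id3 the lowest, -1.93.

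To compare members with each other, CPM was divided by the exon length in kilobases. In lone NFs Id3 was highest, at 95.8 CPM per kilobase in CD26- and 153 in CD26+ NFs. Next came Grem1 (61.9) and Id2 (23.7) in CD26- NFs, and Id2 (35.5) and Grem1 (31.7) in CD26+ NFs. In co-cultured NFs Grem1 led with means of 223 and 219 CPM per kilobase, and Id3 followed with 27.1 and 35. Its range in CD26- NFs (23.6 to 30.7) overlapped that of Id2 (20.9 to 26.5). Bmp2 took the fourth place in co-cultured CD26+ NFs (19.6) and the sixth in co-cultured CD26- NFs (3.64), where its range overlapped that of Bmp6. In tumor cells Id3 was highest in both cultures (means of 40.5 and 49.3), and in lone cells the range of Id2 overlapped that of Fst above it and that of Bmp7 below it. Of the antagonists, Grem1 and Nog were at or under 0.45 CPM per kilobase in a tumor library.

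The members' levels were also compared with those of all 13490 genes with a mean of at least 1 CPM, by Pearson's r of log2(CPM + 1) over the 10 libraries. These correlations describe libraries that share gels, lines and cell types, and carry no test. The nearest genes were Itln1 (r = 0.997) and Slc14a1 (0.992) for Bmp2, Lrrc75b (0.994) and Vstm2b (0.991) for Bmp6, and Cpeb1 and Kif1a (0.998 each) for Grem1. They included Coro6 (0.988) for Bmp7, and were Srbd1 (0.990) and Pawr (0.986) for Fst, and Aifm1 (0.930) and Aldh3b1 (0.907) for Bmp4. For the Id genes they were Gmds (0.959) and Foxc1 (0.955) for Id1, St3gal5 (0.956) and Urgcp (0.923) for Id2, and Emc2 (0.980) and Stk16 (0.979) for Id3. Among the members themselves Grem1 rose with Bmp6 (r = 0.933) and Bmp2 (0.819) and against Fst (-0.955), and Id1 with Id3 (0.901), while Id2 followed neither Id1 (-0.042) nor Id3 (0.142).

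A list of 52 other BMP pathway genes was set beside the members. In NFs 41 of them could be tested, and with co-culture 13 rose and 17 fell (25.9% and 22.9% of all genes, the shares to set beside the counts by role), with a median log2 fold change of -0.22 against 0.02 over all genes. By role, 2 of 8 feedback and target genes rose and 5 fell (median -0.83). Atoh8, a BMP-responsive transcription factor, went from 45.5 and 40.6 CPM in lone NFs to 1.99 to 6.56 CPM in co-culture (-3.37, SE 0.32, adjusted p = 2.39e-05). Smad6, the inhibitory SMAD of the pathway, named here after its values were seen, went from 19.9 and 27.3 CPM to 3.68 to 5.45 CPM (-2.25, SE 0.201, adjusted p = 1.67e-05). Msx1 and Hey1, of the same role and also named after their values were seen, went the other way. Levels of Msx1 went from 14.2 and 12.5 CPM to 24 to 40 CPM, and those of Hey1 from 0.807 and 1.82 CPM to 2.7 to 7.71 CPM. Of 10 tested extracellular antagonists and modulators 4 rose and 4 fell (median 0.14). Fstl3, a follistatin-like activin binder, rose from 25.3 and 18 CPM to 223 to 316 CPM (3.78, SE 0.176, adjusted p = 1.24e-06). Bmper, which binds BMPs and modulates their activity, fell from 424 and 307 CPM to 14.1 to 30.5 CPM (-4.12, SE 0.163, adjusted p = 1.91e-07). Chrdl1, a chordin-like BMP binder, fell from 2.05 and 11.5 CPM to 2 counts in 4 libraries (ratio of pooled rates 206, 95% counting interval 56.4 to 1716, lone over co-cultured).

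All 3 activin and inhibin subunit genes rose in co-cultured NFs (median 1.65). Follistatin binds activins through the subunits that Inhba and Inhbb encode, while Inha encodes the alpha subunit of inhibins. Inhba, the activin A subunit, went from 283 CPM (CD26-) and 119.6 CPM (CD26+) in lone NFs to 3346 and 4534 CPM for the CD26- subset with tumor cells and 2059 and 2152 CPM for the CD26+ subset (4.02, SE 0.186, adjusted p = 1.55e-06). Tumor cells had 285 and 223 CPM alone, and beside NFs 239 and 209 CPM. Among ligands, Bmp8a rose from 0.124 and 0.983 CPM to 2.12 to 3.6 CPM (2.50, SE 0.621, adjusted p = 0.00766), a call lost without gel 4 (2.33, adjusted p = 0.0515). Of 10 receptors and co-receptors 2 rose and 4 fell (median -0.31), of 4 SMADs 1 rose and 2 fell, and of 3 E proteins 1 fell. As for the members, these genes had their lone levels in gel 1 only.

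**Figure D5:**
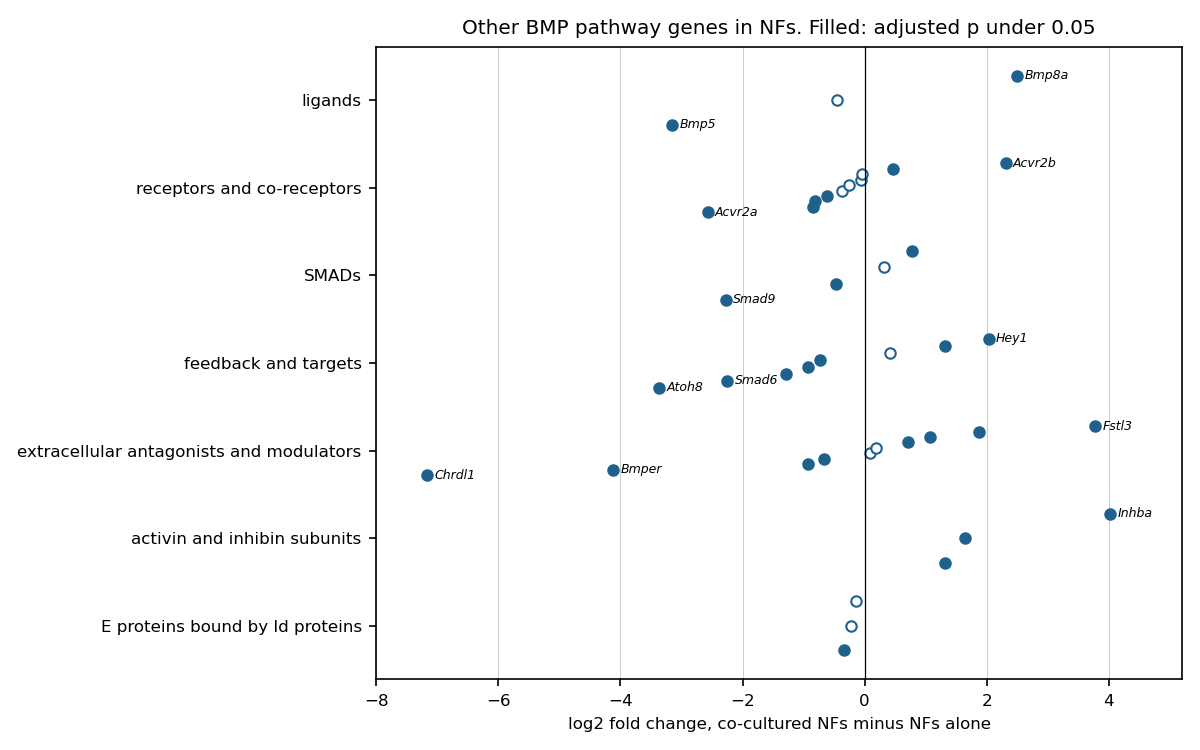
Log2 fold change of the 41 tested pathway genes in co-cultured against lone NFs, by role, with filled points for adjusted p under 0.05 and names for called genes beyond 2 in size (the value of Chrdl1 rests on 2 counts in co-culture). All 3 activin and inhibin subunits lie to the right of 0. Of 8 feedback and target genes 5 are filled to the left and 2 to the right.

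Between subsets 2 of the 41 were higher in CD26+ NFs and 6 lower (median -0.26; 3.93% and 3.60% of all genes). Rgma, a BMP co-receptor, was higher (0.68, SE 0.152, adjusted p = 0.0305), as was Chrd, the antagonist chordin (0.59, SE 0.153, adjusted p = 0.0466). Inhba (-1.18, SE 0.175, adjusted p = 0.0073), Bmper (-0.91, SE 0.157, adjusted p = 0.0126) and Bmpr2, the type II BMP receptor (-0.79, SE 0.162, adjusted p = 0.024), were lower. All 5 calls were lost without gel 5 (0.72, 0.50, -1.10, -0.76 and -0.60 in the same order, adjusted p from 0.128 to 0.432), and those of Rgma, Chrd and Bmpr2 also without gel 1 (0.54, 0.57 and -0.72). Within co-culture, where 6.01% of all genes were called, 0 were higher and 7 lower, among them Bmper (-1.10) and Inhba (-1.08), and 0 were called without gel 4 or gel 5. In the main fit no pathway gene was called for a difference between the subsets in its response to co-culture. Calls for these genes under other settings were not recorded.

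In tumor cells 30 pathway genes could be tested, of which 11 rose and 3 fell with co-culture (median 0.20; 10.8% and 11.5% of all genes). Acvrl1 and Eng, a BMP9 receptor and its co-receptor best known from endothelium, rose from 0.0543 and 0.382 CPM to 1.47 and 3.59 CPM (3.56, SE 0.64, adjusted p = 0.00252) and from 3.31 and 2.54 CPM to 8.48 and 10.7 CPM (1.67, SE 0.26, adjusted p = 0.00282). NFs had 70 to 115 CPM of Acvrl1, and with the fibroblast marker share subtracted the increases were 3.41 and 1.65. Inha rose (1.32, SE 0.251, adjusted p = 0.0074), and Bmper (-1.35, SE 0.396, adjusted p = 0.0389), the antagonist Nbl1 (-0.85, SE 0.101, adjusted p = 0.000906) and the co-receptor Rgmb (-0.61, SE 0.125, adjusted p = 0.0101) fell. Without line 13-MCB-17 Inha (0.86, adjusted p = 0.525), Bmper (-1.42, 0.098), Nbl1 (-0.89, 0.124) and Rgmb (-0.66, 0.278) were no longer called, and without line 10-SJK-221 neither were Bmper (-1.23, 0.259), Nbl1 (-0.80, 0.103) and Rgmb (-0.55, 0.282).

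Against tumor cells grown alone, 31 of 42 tested pathway genes were higher in NFs and 3 lower (median 2.58; 28.4% and 27.1% of all genes). In shared gels 26 were higher and 5 lower (median 2.06; 27.7% and 24.2% of all genes). Fstl1, a secreted follistatin-like protein, had 2960.4 and 2841 CPM in lone NFs and 0 counts in lone tumor cells, at least 16395-fold apart. Bambi, a decoy BMP receptor, was at least 113-fold higher in lone NFs, and Msx1, a BMP target homeobox gene, at least 188-fold higher in shared gels. Lower in lone NFs were the activin receptor Acvr2b (-2.05, SE 0.383, adjusted p = 0.00211), the BMP binder Crim1 (-1.32, SE 0.178, adjusted p = 0.000408) and Smad4 (-0.61, SE 0.14, adjusted p = 0.00623), the last lost without the CD26+ library (-0.38, adjusted p = 0.103). In shared gels Crim1 (-1.28), Tcf3, an E protein (-0.91), and Smad5 (-0.64) were the lowest among genes with a mean of at least 1 CPM, with Crim1 lost without gel 5 (-1.22, adjusted p = 0.0558) and the others without either gel. The responses of NFs and tumor cells to co-culture differed for 15 of the 42 (20.2% of all genes), with 3 higher and 12 lower in NFs. The highest were Inhba (4.22, SE 0.307, adjusted p = 0.000206), Acvr2b (1.66) and Smad4 (0.84). Among the lower genes with a mean of at least 1 CPM were Acvrl1 (-3.07) and Bmper (-2.77). None of these 5 was called without gel 4 or gel 5, where Inhba was 4.50 and 3.93 with adjusted p of 0.063 and 0.0616.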

How the data were processed

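Gene counts of 10 mRNA libraries were deposited by the authors as whole numbers per gene, not normalized. Per the labels and the processing notes, libraries were made with a stranded mRNA kit and reads aligned to GRCm38 with HISAT2 2.2.1. Which program counted reads, whether strand was used and which annotation release applied are not given in the sources used here. Libraries held 14142334 to 18408940 counts. A further floxed allele of the tumor model and some genes that the naming rules below select are not reported here.

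Levels are CPM of the library total, with a floor of 3 counts and exact 95% intervals, both for counting error only. Comparisons were fitted over all genes with edgeR 4.0.16 in R 4.3.3 (TMM scaling, filterByExpr, quasi-likelihood F test, Benjamini-Hochberg adjustment, threshold 0.05), after tests on simulated data. All adjusted p-values come from this test unless DESeq2 (1.42.0) is named. Subset comparisons and the response of NFs used the 6 NF libraries, the response of tumor cells used the 4 tumor libraries with the line in the model, and comparisons of cell types used all 10. Within-subset values came from the fit of the NF groups, where each lone group was a single library and the co-cultured groups gave the spread. Standard errors are from the fitted model, and none is given where a group had 0 counts. Carry-over was estimated from the median marker share. Exon lengths came from GENCODE M21, which matched 99.53% of gene identifiers.

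Libraries of 1 gel pair across groups by the labels, and deviations of same-gel libraries from their group means correlated at 0.216 (both NF subsets), 0.168 (CD26- NFs and tumor cells) and 0.0874 (CD26+ NFs and tumor cells). The members, gene lists and tests were chosen with earlier results of these data known. All members are named. Of the pathway list, the 3 highest and 3 lowest called genes with a mean of at least 1 CPM are named per comparison. Alternatives were RLE scaling, no filter, DESeq2, the gel as a block, the 10-library fit and leaving out gels or lines. Subtraction of carry-over and the alternatives for values within co-culture or within a subset were added after seeing the data.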

Additional observations from a re-analysis of the deposited data

Results flagged for a closer look

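For 4 members the response to co-culture differed between NFs and tumor cells by a direct test in edgeR over 10 libraries. The log2 difference, NF response minus tumor response, was -1.09 for Fst (SE 0.295, adjusted p = 0.0338), -1.37 for Id1 (SE 0.344, adjusted p = 0.0263), 1.17 for Id2 (SE 0.294, adjusted p = 0.0277) and -2.19 for Id3 (SE 0.233, adjusted p = 0.000662). None of the 4 was called without gel 4 or without gel 5, with signs kept and adjusted p from 0.0719 to 0.322.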

How the results depend on the processing

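Of the alternatives to the members' calls 275 of 335 kept the call and 60 lost it, and of those to members not called 9 of 337 gained one. No sign of a called member turned. The 7 member calls for co-cultured against lone NFs were kept in all 7 alternatives run. Member levels under TMM-scaled CPM moved by no more than the spread between libraries in 50 of 60 group values. For the lone NF groups, each a single library, a counting interval took the place of that spread.

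Counts of genes called moved as follows. Between subsets over 3 gels, 1130 genes became 268 in the 10-library fit and 17 to 1299 when 1 gel was left out (17 without gel 5), and the share of calls higher in CD26+ NFs went from 52.2% to 70.5% in the 10-library fit and 39.8% without gel 4. The 1 member called became 2 with DESeq2 and 0 to 2 when 1 gel was left out. In tumor cells, 2942 genes and 2 members became 3789 and 3 with no filter (the added member being among those the filter had removed), 1568 and 1 with DESeq2, 0 and 0 with no line in the model, that is without the replicate block (2207 genes at an unadjusted p under 0.05), and 411 to 989 genes and 0 to 1 members without 1 line. Between NFs and tumor cells in shared gels, 8839 genes became 2614 to 3018 and 9 members 5 to 6 without 1 gel. For the difference between subsets in response, 61 genes became 18 with no filter, 98 with DESeq2, 33 with carry-over subtracted, 395 with the gel as a replicate block (1 member, Bmp4, from 0) and 0 without gel 4 or 5 (473 and 692 at an unadjusted p under 0.05). For the difference between NFs and tumor cells in response, 3439 genes and 4 members became 0 and 0 without gel 4 or 5 (3260 and 3467 unadjusted), and 5 members with no filter or DESeq2 (Bmp7 gained) and with carry-over subtracted (Grem1 gained). Within co-culture, 975 genes became 603 with no filter, 2407 with the gel as a replicate block in a fit of the 4 co-cultured NF libraries alone (both choices changed together) and 0 without gel 4 or 5 (1447 and 752 unadjusted), with 0 of 2 members left. Within CD26- NFs 4997 genes became 418 to 494, and within CD26+ NFs 5556 became 413 to 504, without 1 gel, with 2 members left in each. The cause of these shifts was not tested, beyond the fewer libraries where one was left out. The Grem1 gain followed a subtraction that left no Grem1 counts in co-cultured tumor cells. In shared gels Bmp4 was called with the gel as a replicate block in a fit of the 6 co-culture libraries alone (-1.92, adjusted p = 0.0397), where both choices changed together, and also with no filter and no block (-2.18, adjusted p = 0.00494). Fits with the gel block changed no other member's call.

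Leaving out a gel or line leaves groups of 1 library, which are then assumed to vary like the others. Lone NFs come from 1 gel, so culture and gel cannot be told apart there. Depth limits statements on Bmp4, Nog and Bmp2 in lone NFs, and on all members but Bmp7, Fst and the Id genes in tumor cells.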
